A study of Mus musculus with 6 samples.

Results

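Claudin-5 and 7 other tight junction genes were followed in sorted blood endothelial cells of mouse intestine. The members, taken by name, are Cldn5, Ocln, Marveld2, F11r, Jam2, Jam3, Tjp1 and Cgnl1, 8 of 22180 genes with a probe set that carries 1 gene symbol. Each was measured by 1 probe set of the Affymetrix Mouse Gene 2.0 ST array, and all 8 passed the filter on low values.

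Knockout mice carried floxed Apc and Villin-CreERT2, a tamoxifen-inducible recombinase driven by a promoter active in gut epithelium, so the deletion was aimed at epithelial cells and not at the endothelium that was sorted. Control mice are labelled WT with floxed Apc, and no Cre is named for them. Both groups were adults of a mixed C57BL/6 x 129 background, and both were given tamoxifen on 5 days and gave tissue on day 6. Cells were sorted for CD31 after removal of cells with CD45, EpCAM or gp38, and 3 knockout and 3 control arrays were run, labelled biological replicates. The labels do not say whether an array pools several mice.

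Tight junctions seal the space between neighbouring cells of an endothelium or epithelium. Claudins form the strands of the seal, the MARVEL proteins occludin and tricellulin join them along edges and at cell corners, and junctional adhesion molecules (JAMs) bind across the gap. Scaffolds such as ZO-1 tie these membrane proteins to actin. Claudin-5 is the claudin best known from endothelium, and it limits the passage of small molecules across the blood-brain barrier.

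Promoter windows are shown for Cldn5, Tjp1 and Cgnl1, the members whose knockout and control arrays did not overlap. They come from RefSeq (GRCm38.p6), run 5′ to 3′ along the gene's strand and span 250 bases before to 50 after the start of the gene. RefSeq windows were matched for 6 of the 8 genes, all but Jam2 and Jam3. Capitals mark GGAA, the core bound by ETS factors such as ERG, and CCAAT, the box bound by NF-Y, each read on both strands (TTCC and ATTGG on the other). The Cldn5 window is chr16:18776597-18776896 on the plus strand, the Tjp1 window chr7:65371195-65371494 on the minus strand and the Cgnl1 window chr9:71771553-71771852 on the minus strand.
Cldn5: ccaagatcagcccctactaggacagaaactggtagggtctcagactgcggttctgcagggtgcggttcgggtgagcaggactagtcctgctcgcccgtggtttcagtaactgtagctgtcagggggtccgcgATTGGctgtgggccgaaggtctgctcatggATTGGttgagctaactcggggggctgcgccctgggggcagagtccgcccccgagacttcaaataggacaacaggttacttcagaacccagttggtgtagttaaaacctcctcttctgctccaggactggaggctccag
Tjp1: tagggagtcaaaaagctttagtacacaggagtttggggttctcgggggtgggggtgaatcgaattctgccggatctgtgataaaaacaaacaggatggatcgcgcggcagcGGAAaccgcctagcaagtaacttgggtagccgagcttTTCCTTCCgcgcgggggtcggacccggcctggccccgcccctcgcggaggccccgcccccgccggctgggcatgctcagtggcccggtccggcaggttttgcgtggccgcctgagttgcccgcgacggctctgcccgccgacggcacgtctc
Cgnl1: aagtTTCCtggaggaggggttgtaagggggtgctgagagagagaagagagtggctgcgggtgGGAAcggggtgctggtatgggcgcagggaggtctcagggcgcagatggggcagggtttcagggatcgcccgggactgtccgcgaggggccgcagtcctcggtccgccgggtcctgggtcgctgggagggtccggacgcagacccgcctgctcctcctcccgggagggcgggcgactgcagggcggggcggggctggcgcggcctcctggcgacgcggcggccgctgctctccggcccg
The Cldn5 window held 2 CCAAT boxes, beginning at -118 and -88 from the start, and 0 GGAA. Over 27025 windows of the same length, 37.9% held CCAAT and 95.9% held GGAA. The Tjp1 window held 3 GGAA and 0 CCAAT, and the Cgnl1 window 2 GGAA and 0 CCAAT. The letters ACAAT (core of SOX factors, in 31.6% of all windows), CTTTG (core of TCF and LEF factors, in 54.0%) and GTAAACA (a forkhead motif, in 3.55%) were in none of the windows of the 6 genes (Ocln and Marveld2 have more than 1), read on both strands. These are matches of letters and not sites of binding.

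Array medians of the deposited log2 values lay between 4.77 and 4.81, a closeness that their quantile normalization brings about. Arrays correlated at 0.979 to 0.984 within the knockout group, 0.977 to 0.984 within the control group and 0.964 to 0.974 across groups. All 12 pan-endothelial markers were above the background level of 4.12. So were all 14 enterocyte and all 10 mural markers, so passing that level does not set endothelium apart from other cells. Epcam, an epithelial surface marker removed by the sort, was at 3.74, 3.75 and 3.81 on the knockout arrays, and at 3.87, 7.20 and 6.24 on the control arrays. Controls 2 and 3 therefore carried Epcam signal, and control 1 was below the background level like the knockout arrays.

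Cldn5, the strand-forming claudin of endothelium, was the 1 member that passed the threshold on adjusted p, and it fell 2.43-fold. Its log2 values were 8.16, 8.45 and 8.19 on the knockout arrays, against 9.93, 9.63 and 9.08 on the control arrays. Every knockout array lay below every control array, and the control arrays were the more widely spread (SD 0.16 in knockout, 0.43 in control, n = 3 each). The log2 change, knockout minus control, was -1.28 ± 0.19 (standard error of the limma fit over all genes, 95% interval -1.72 to -0.84, adjusted p = 0.0137). In bulk RNA of sorted cells, fewer cells that express a gene and less of its RNA per cell cannot be told apart.

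At an adjusted p of 0.05, limma called 399 of 15295 genes (2.61%), with 226 (1.48%) lower and 173 (1.13%) higher in the knockout. A called fall of at least 2-fold was found for 89 (0.582%), Cldn5 among them. Of the 8 members, 1 was called, lower. Cldn5 had rank 58 by size of fall among the 226 lower genes, and rank 47 once the enterocyte and pan-epithelial markers were left out of that count. By p it had rank 1 among 79 tested genes of junctions or of Cldn5 regulation. By size of change it had rank 2 there, after Cldn7. On the plot of all genes, the other members lie inside the grey band of genes that did not pass.

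**Figure D1:**
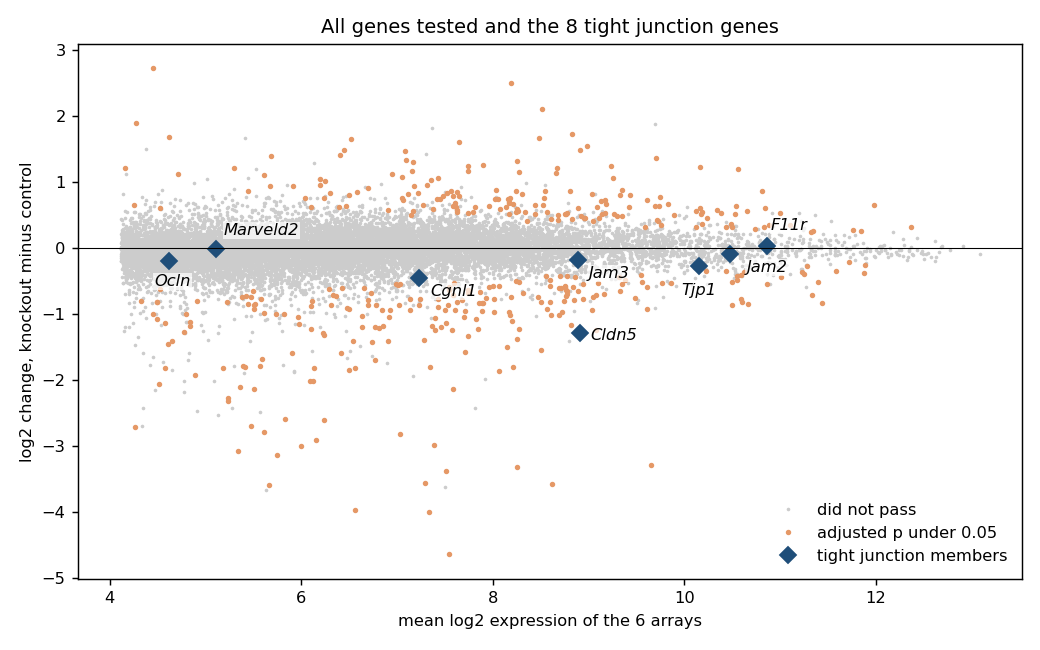
Log2 change, knockout minus control (vertical axis), against the mean log2 expression of the 6 arrays (horizontal axis) for all 15295 genes tested; orange points passed an adjusted p of 0.05 and blue diamonds are the 8 tight junction genes. Cldn5 lies at -1.28, while the other 7 lie between -0.45 and 0.03.

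The Cldn5 call depended on single arrays, and on whether mural or enterocyte signal was fitted beside genotype. Without knockout 1 its adjusted p was 0.0509 (log2 change -1.23), and without knockout 3 it was 0.0640 (-1.24). Without control 1 the change was -1.09 ± 0.17 (adjusted p = 0.0133). Against control 1 alone, the control array with the highest Cldn5, it was -1.67 ± 0.16 (adjusted p = 0.0197). That fit takes its spread from the knockout arrays and assumes that the lone control varies like them, although the control arrays were the more widely spread.

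Among the MARVEL genes, neither of the pair tested passed. Ocln, for occludin, was at 4.93, 4.29 and 4.33 on the knockout arrays, against 4.90, 4.65 and 4.59 on the control arrays. Knockout 1 was the highest of the 6 and the other knockout arrays the lowest, so the groups overlapped, at levels not far above background. The change was -0.20 ± 0.19 (95% interval -0.63 to 0.24, adjusted p = 0.678). Marveld2, for tricellulin, which seals the corners where 3 cells meet, was at 5.05, 5.06 and 5.21 in knockout and at 5.05, 5.07 and 5.23 in control. Its groups overlapped almost fully (-0.01 ± 0.13, 95% interval -0.32 to 0.29, adjusted p = 0.974). Ocln and Marveld2 are neighbours on chromosome 13 among the genes tested.

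The JAM genes, whose products are immunoglobulin-type adhesion proteins, did not pass. F11r, for JAM-A, was at 10.87, 10.97 and 10.78 on the knockout arrays and at 10.80, 10.89 and 10.85 on the control arrays. The groups overlapped, and the change was 0.03 ± 0.06 (95% interval -0.12 to 0.17, adjusted p = 0.878). Jam2, for JAM-B, which endothelium carries, was at 10.44, 10.46 and 10.41 in knockout and at 10.61, 10.50 and 10.45 in control (-0.08 ± 0.06, 95% interval -0.22 to 0.06, adjusted p = 0.588). Jam3, for JAM-C, was at 8.80, 8.74 and 8.86 in knockout, against 8.83, 9.18 and 8.91 in control. Control 2 stood highest and control 1 lay among the knockout arrays (-0.18 ± 0.11, 95% interval -0.42 to 0.06, adjusted p = 0.461). The intervals of F11r and Jam2 together span -0.22 to 0.17 on the log2 scale, the narrowest of the 8.

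Both plaque genes lay lower on every knockout array than on any control array, without passing the test. Tjp1, for the scaffold ZO-1, was at 10.09, 9.99 and 9.97 on the knockout arrays, against 10.34, 10.34 and 10.20 on the control arrays. The groups did not overlap, and the change was small and even (-0.28 ± 0.07, or 1.21-fold, 95% interval -0.43 to -0.12, adjusted p = 0.0813). Cgnl1, for paracingulin, a plaque protein related to cingulin, was at 7.03, 7.05 and 6.94 in knockout and at 7.70, 7.61 and 7.07 in control. Control 3 lay just above knockout 2, and the change was -0.45 ± 0.17 (95% interval -0.83 to -0.07, adjusted p = 0.216). Control 3 was also the lowest control array for Cldn5, Ocln, Tjp1 and Jam2.

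**Figure D2:**
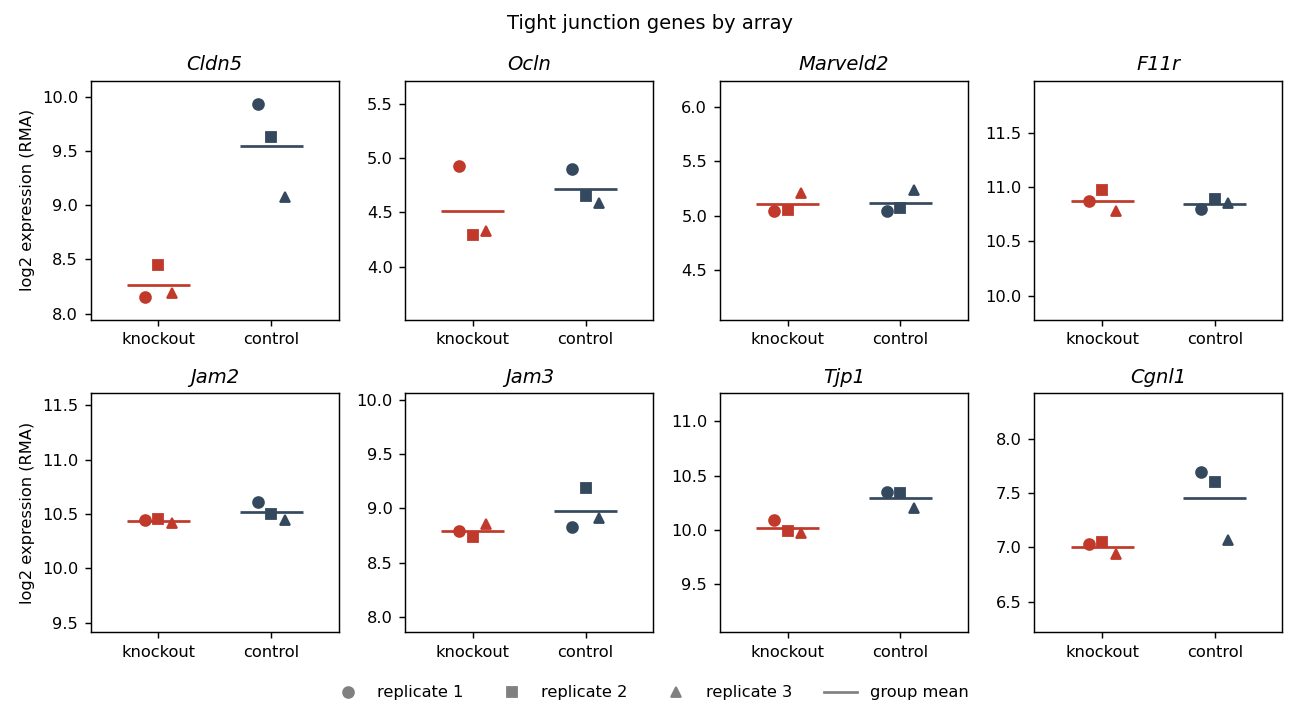
Log2 expression of the 8 genes on the 3 knockout (left, red) and 3 control arrays (right, dark blue), with the replicate number as the marker shape and the group mean as a line; every panel spans the same range of log2 units. Cldn5 shows the widest gap between groups, and control 3 is its lowest control array at 9.08.

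Of the members, 3 of 8 had groups that did not overlap, all of them lower in the knockout (Cldn5, Tjp1 and Cgnl1). Over all genes tested, 22.1% did not overlap, 12.3% lower and 9.79% higher in the knockout. An unadjusted p under 0.05 was found for the same 3 members and for 16.4% of all genes. The change was below 0 for 7 of 8 members, with a median of -0.19, and for 53.3% of all genes, with a median of -0.02.

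Other claudins did not pass. Of 29 on the array besides Cldn5, 13 were above background, and 0 of them were called by limma, 2 having an unadjusted p under 0.05. These were Cldn3 and Cldn7, claudins of epithelium. Cldn3 was at 5.36, 5.58 and 5.89 in knockout and at 6.13, 6.86 and 6.72 in control (-0.96 ± 0.22, adjusted p = 0.0554). Cldn7 was at 4.94, 5.00 and 5.03 in knockout and at 5.28, 7.80 and 7.48 in control (-1.86 ± 0.54, adjusted p = 0.119). Their highest values were those of controls 2 and 3, the arrays with Epcam signal. Without control 1 both passed, Cldn3 at -1.18 (adjusted p = 0.0160) and Cldn7 at -2.65 (adjusted p = 0.0001487). Cldn15, named here after its values were seen, is a claudin of gut epithelium. It was at 9.03, 9.65 and 8.89 in knockout and at 8.93, 8.80 and 8.65 in control (0.39 ± 0.18, adjusted p = 0.322). The 13 claudins had a median change of -0.05.

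Other tight junction genes did not pass either. Of 10 further membrane genes above background, 0 were called and 1 had an unadjusted p under 0.05, with a median change of -0.13. That gene was Esam, an endothelial adhesion molecule, at 10.57, 10.62 and 10.48 in knockout against 10.28, 10.43 and 10.31 in control (0.21 ± 0.07, adjusted p = 0.152). Marveld1 was next by p (-0.23 ± 0.12, adjusted p = 0.401). Of 18 plaque and polarity genes, 0 were called and 4 had an unadjusted p under 0.05, with a median of -0.07. The smallest p-values there were those of Prkcz, an atypical protein kinase C of the polarity complex (-0.48 ± 0.17, adjusted p = 0.202), and Ybx3, a ZO-1-associated nucleic acid binding protein (0.17 ± 0.06, adjusted p = 0.232). Tjp3, for ZO-3, was at 5.34, 5.54 and 5.15 in knockout and at 5.71, 5.65 and 5.74 in control (-0.36 ± 0.15, adjusted p = 0.264), named after its values were seen. Magi3, with a smaller p than Tjp3, was higher in the knockout (0.27 ± 0.11, adjusted p = 0.253). Groups did not overlap for 2 of the 18 lower in the knockout and for 5 higher, against 12.3% and 9.79% of all genes.

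Adherens junction genes, which hold endothelial cells together beside the tight junctions, gave a median change of 0.02. Of 20 tested, 0 were called by limma and 2 had an unadjusted p under 0.05. Cdh5, the core cadherin of these junctions, was at 12.00, 12.02 and 11.96 in knockout and at 12.08, 12.06 and 12.00 in control (-0.05 ± 0.04, adjusted p = 0.623). Cdh2, for N-cadherin, which joins endothelium to mural cells and is made by both, was at 4.88, 4.01 and 4.15 in knockout, against 5.07, 5.29 and 5.40 in control (-0.91 ± 0.23, adjusted p = 0.0757). On 1 knockout array, the second, it was not above background. Rap1b, a small GTPase that steadies junctions, gave 0.22 ± 0.09 (adjusted p = 0.261).

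**Figure D3:**
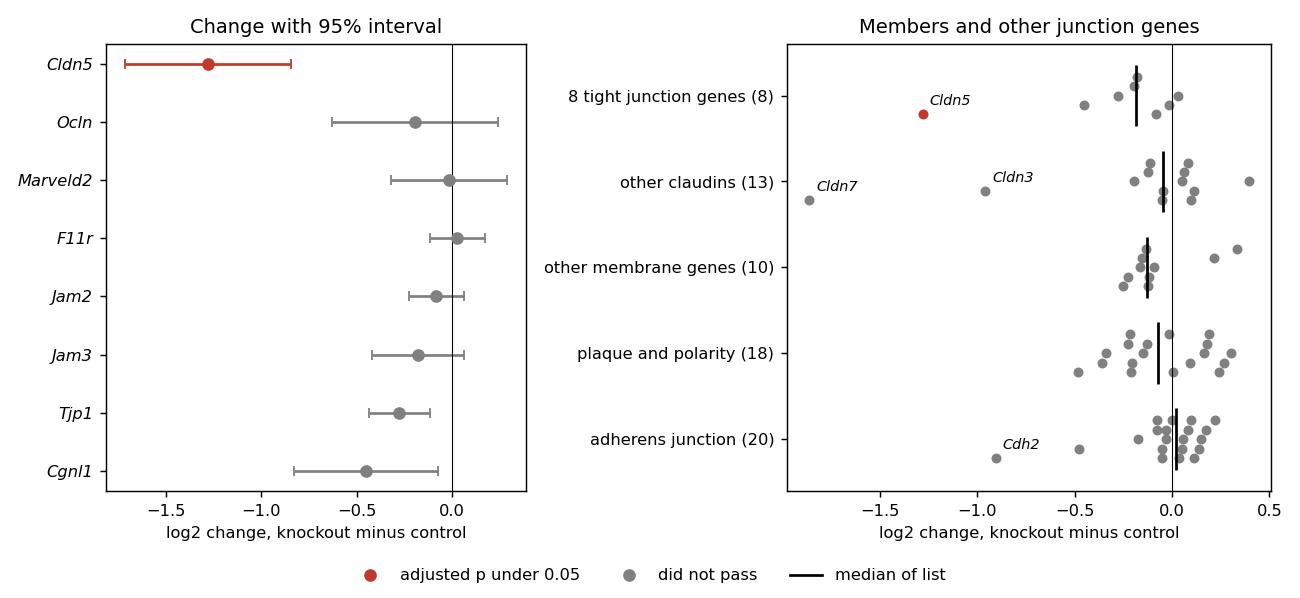
Left, log2 change of the 8 genes, knockout minus control, with its unadjusted 95% interval; right, the changes of the 8 genes and of 4 lists of other junction genes, with the number of genes tested in brackets and the list median as a black line. Cldn5 is the only red point, the 1 gene past an adjusted p of 0.05, and the list medians lie between -0.19 and 0.02.

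Among 12 genes listed as regulators of Cldn5, Fzd4 rose and 11 did not pass. These are RNA levels, and the activity of the proteins was not measured. Fzd4, the Norrin and Wnt receptor needed for the barrier of retinal vessels, was at 10.83, 10.94 and 10.88 in knockout and at 10.51, 10.65 and 10.59 in control (0.30 ± 0.06, adjusted p = 0.0419). The groups did not overlap, but the call was lost in 11 of 20 alternatives, among them the omission of any single array. Kdr, the main VEGF receptor, was at 11.41, 11.25 and 11.47 in knockout and at 11.12, 11.09 and 11.06 in control (0.28 ± 0.06, adjusted p = 0.0549). The transcription factor genes Erg (0.01 ± 0.07), Sox18 (-0.01 ± 0.05) and Foxo1 (0.09 ± 0.09) did not pass, nor did Ctnnb1, for beta-catenin (-0.08 ± 0.07), with adjusted p-values of 0.637 to 0.973. The genomic neighbours of Cldn5 were tested as well. Tbx1 and Cdc45, the nearest tested gene on either side, gave -0.24 ± 0.15 and 0.33 ± 0.22 (adjusted p = 0.497 and 0.524).

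Of the 12 pan-endothelial markers, 0 were called lower and 1 higher, Eng, for the TGF-beta co-receptor endoglin (0.26 ± 0.04, adjusted p = 0.0211). By limma, 5 had an unadjusted p under 0.05, against 16.4% of all genes. Groups did not overlap for 5 higher and 1 lower in the knockout, against 9.79% and 12.3% of all genes. The mean of the 12 markers was 10.78, 10.77 and 10.70 on the knockout arrays, against 10.67, 10.63 and 10.63 on the control arrays. It was thus 0.10 higher in the knockout, which enlarges a Cldn5 difference taken relative to it. With this mean subtracted within each array and set against the control average, Cldn5 lay at -1.52, -1.22 and -1.41 on the knockout arrays, and at 0.36, 0.10 and -0.46 on the control arrays. The difference was -1.38 (exact permutation test, two-sided, p = 0.1, the smallest that 3 arrays against 3 allow). Against Cdh5 alone it was -1.23 (exact p = 0.1).

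Markers of other cells moved between the groups. Mural genes, those of pericytes and smooth muscle, were called lower in 6 of 10 tested, against 1.48% of all genes. All 10 lay lower in the knockout without overlap of the groups, as did 12.3% of all genes. Their mean log2 value was 7.71 to 8.08 on the knockout arrays and 8.88, 8.57 and 8.61 in controls 1, 2 and 3. Enterocyte genes were called lower in 11 of 14, and all 14 lay lower in the knockout without overlap, against 1.48% and 12.3% of all genes. Their means were 5.25 to 5.68 in knockout and 7.09, 9.13 and 8.69 in controls 1, 2 and 3. Pan-epithelial genes had means of 4.98 to 5.31 in knockout and of 5.46, 7.02 and 6.63 in control. Of 7 tested, 0 were called by limma and 6 had an unadjusted p under 0.05, against 16.4% of all genes. Both epithelial lists were lowest among the controls in control 1, the array with the highest Cldn5, and the mural mean was highest there.

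Lymphatic endothelium also expresses Cldn5, and the sort against gp38, which is podoplanin, would remove it. Pdpn, the gene of that sort marker, was at 5.17, 5.07 and 5.10 in knockout and at 5.79, 5.29 and 5.17 in control (-0.30 ± 0.18, adjusted p = 0.461). Of 6 lymphatic markers tested, Pdpn included, Lyve1 (1.13 ± 0.23, adjusted p = 0.0406) and Flt4 (0.65 ± 0.09, adjusted p = 0.0104) rose and 4 did not pass. Over all genes tested, 1.13% were called higher. Reln gave 0.18 ± 0.23 and Mmrn1 0.32 ± 0.62 (adjusted p = 0.754 and 0.852). Prox1, the lymphatic master regulator, was at 4.06, 4.88 and 4.33 in knockout and at 4.04, 4.28 and 4.77 in control (0.06 ± 0.25, adjusted p = 0.940). Of fibroblast markers, 1 of 5 was called lower (Col1a2, -0.83 ± 0.17, adjusted p = 0.0433), with 2 at an unadjusted p under 0.05. Over all genes tested, the shares were 1.48% and 16.4%. Of leukocyte markers 0 of 6 (2 at an unadjusted p under 0.05) and of enteric glia markers 0 of 3 (0 unadjusted) were called by limma. The part of these cell types in the Cldn5 result was not tested beyond the fits that follow.

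With the enterocyte mean as a covariate, the Cldn5 change was -1.89 ± 0.44 and did not pass (adjusted p = 0.280). With the mural mean as a covariate, an alternative added on sight of these values, it was -0.66 ± 0.54 (adjusted p = 1.00). The groups did not overlap in either covariate, so covariate and genotype cannot be told apart well in these fits. Over all genes they called 3 and 0, against 399 without a covariate. At an unadjusted p of 0.05 they held 1176 and 748 genes.

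**Figure D4:**
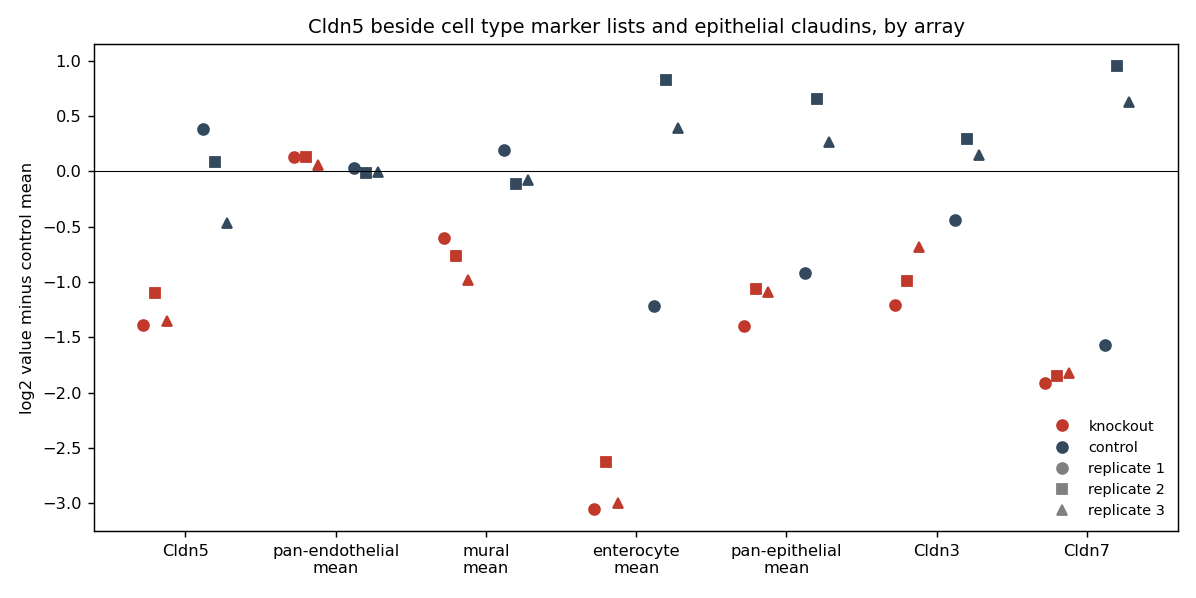
Log2 value minus the control mean for Cldn5, for the mean of each of 4 marker lists and for the epithelial claudin genes Cldn3 and Cldn7, on the knockout (red, left) and control arrays (dark blue, right), with the replicate number as the marker shape. The mean of the pan-endothelial list stays within 0.13 of its control mean, and that of the mural list is 0.60 to 0.98 lower on the knockout arrays. Control 1 stands apart from controls 2 and 3 for the epithelial genes.

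The genes nearest to Cldn5 in pattern were sought by the root-mean-square difference between log2 values over the 6 arrays, each gene centred on its own mean. They were Ndufa4l2 (0.19), Ecm2 (0.21), Cryab (0.21), Igfbp5 (0.21) and Des (0.23). Des encodes desmin, the intermediate filament of muscle and pericytes, and is on the mural list. Ndufa4l2 is known as a marker of pericytes in the mouse brain, Cryab is a small heat shock protein gene rich in muscle, Igfbp5 binds insulin-like growth factors and Ecm2 is a matrix protein gene. Ndufa4l2 was at 8.45, 8.23 and 8.01 in knockout, against 9.66, 9.50 and 9.03 in control. As with Cldn5, control 1 was highest and control 3 lowest among the controls. All 5 fell, with log2 changes of -1.41 to -1.04 (adjusted p from 0.00451 to 0.0137), and a gene selected for its likeness to Cldn5 had to be lower in the knockout.

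**Figure D5:**
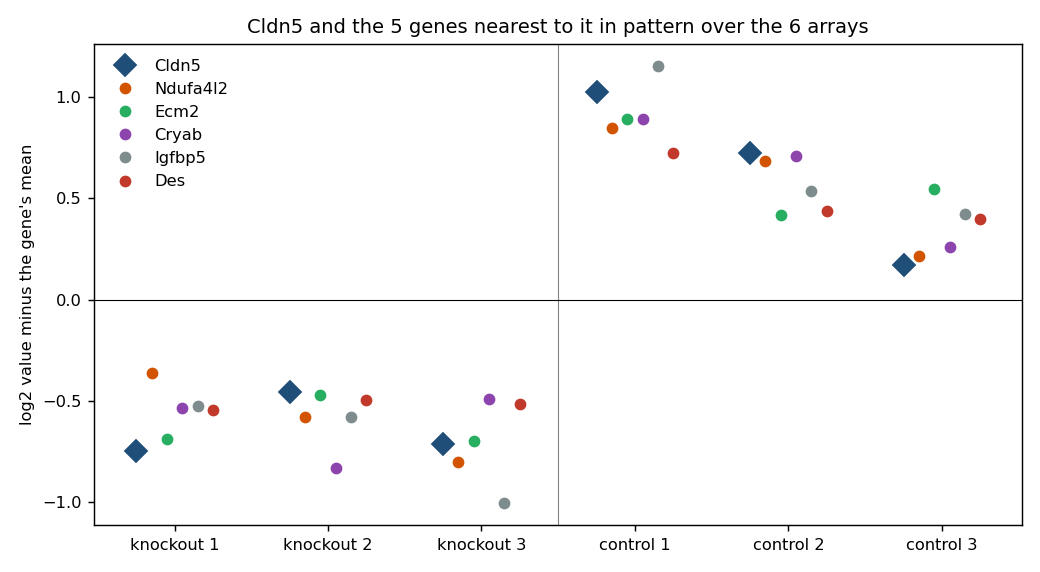
Log2 value minus the gene's own mean over the 6 arrays, for Cldn5 (diamonds) and the 5 tested genes with the smallest root-mean-square difference from it (circles), with knockout arrays left and control arrays right. All 6 genes lie below their mean on the 3 knockout arrays and above it on the 3 control arrays.

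The same search for Ocln gave Banp, Dpy19l4, Shroom1, Tmem131l and Sod3, with differences of 0.06 to 0.09. None of the 5 was called, with adjusted p-values of 0.581 to 0.802. Ocln, F11r and Marveld2 are expressed by gut epithelium as well as endothelium. Set against the control mean, controls 1, 2 and 3 lay at -1.21, 0.82 and 0.39 for the enterocyte mean. For Ocln they lay at 0.18, -0.06 and -0.13, with control 1 highest. For F11r they lay at -0.05, 0.04 and 0.00 and for Marveld2 at -0.07, -0.04 and 0.12. Control 1 was lowest for F11r and Marveld2, as in the enterocyte mean, but Marveld2 was highest in control 3 and the enterocyte mean in control 2. The part of epithelial cells in these values was not tested.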

How the data were processed

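RNA of sorted cells was amplified (Ovation Pico WTA System V2) and run on 6 one-colour arrays. The authors deposited log2 values per probe set, made with RMA in oligo per the submitters' processing notes (versions are not given in the sources used here). RMA corrects background, applies quantile normalization and summarises probes, which compresses differences of weak genes. Precision is limited by the number of arrays.

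Of 41345 probe sets, 23521 carried 1 gene symbol in the platform annotation, 1814 several and 16010 none, and the last 2 kinds were not used. Each gene was given by its brightest probe set. Genes were kept when the mean of the 6 arrays was above 4.12, which 90% of 1414 receptor genes of smell and taste do not reach and which left 15295 genes. The group difference was fitted by limma 3.58.1 under R 4.3.3 (lmFit, then eBayes with trend). Tests were two-sided, adjusted by Benjamini-Hochberg over all genes tested, with a threshold of 0.05. Adjusted p-values come from this fit, ± is its standard error, and fold sizes are 2 to the power of the log2 change. Single values were compared by an exact permutation test. Plots used matplotlib 3.10.9 in Python 3.11.15. In 10 simulations of this comparison with 200 changed genes among 15295, the fit recovered 12.2% of those with a log2 change of 0.5, 76.6% at 1 and 97.0% at 1.5, with 5.00% of calls false.

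The members, gene lists and tests were chosen with earlier results of these data known. Of each list, the called genes were named and, where fewer than 2 were, those with the smallest p up to 2, beside the 5 genes nearest in pattern to Cldn5 and to Ocln. Listed genes not tested had no probe set with 1 symbol or were below background. Alternatives covered the filter, normalization, probe sets, variance model, array weights, threshold, covariates, replicate numbers as a block and leaving out single arrays. The labels do not state that replicate numbers mark a shared litter or day, so the numbers were not taken as pairs. Deviations of same-numbered arrays from their group means correlated at -0.020, -0.0077 and 0.039 over all genes tested, which cannot exclude pairing for single genes.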

Additional observations from a re-analysis of the deposited data

How the results depend on the processing

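Cldn5 was lower in the knockout under every setting tried, and passed in all but 4: each of the covariates, at -1.89 with the enterocyte mean (3 genes called in all, 0 members) and -0.66 with the mural mean (0 genes called by limma, 748 at an unadjusted p under 0.05, and 0 members), and without knockout 1 or knockout 3. Leaving out 1 array at a time gave Cldn5 changes of -1.51 to -1.09, 0 to 1 members called and 91 to 379 genes called. With the enterocyte mean as covariate the standard error of the Cldn5 change was 0.44, against 0.19. The groups did not overlap in this covariate, and a covariate that goes with genotype widens that error by construction. Relative to pan-endothelial genes the Cldn5 difference was -1.61 to -1.21 with 1 array left out and -1.23 against Cdh5 alone; median centring cancels in it by construction. The count of changed genes was 399, and became 139 without the variance trend and 768 at an adjusted p of 0.1, where 2 members passed, Tjp1 being the second. With the replicate block, 394 genes were called, 313 of them among the 399, and Cldn5 had an adjusted p of 0.0115; the block changed no member's call, and of the other genes named it changed that of Cldn3 (adjusted p = 0.0343). With the mural covariate the changes of Lyve1 and Col1a2 turned to -0.42 and 0.17, without passing. The calls of Eng, Lyve1, Flt4 and Col1a2 were lost in 8, 10, 4 and 11 of 20 alternatives; the cause was not tested. Cldn3 and Kdr passed in 4 alternatives each, Cdh2 in 2 and Cldn7 in 1. Against control 1 alone, where the spread comes from the knockout arrays and the lone control is assumed to vary like them, 52 genes were called. Ocln was not tested under the stricter filter, being below it.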
